A study of Mus musculus with 9 samples.

Results

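The genes described here encode the nuclear parts of the mitochondrial respiratory chain and the factors that assemble them. They were chosen by symbol from the platform annotation: every gene whose symbol starts with Ndufa, Ndufb, Ndufc, Ndufs, Ndufv, Uqcr, Cox4 to Cox8 or Sdh. This gave 77 genes of the 18193 with a probe set of their own, each represented by its brightest such probe set, and 71 of the 77 reached a signal of 50 on 2 arrays or more, as did 8716 genes in all. By complex these were 42 genes of complex I (41 passed), 8 of complex II (8 passed), 8 of complex III (8 passed) and 19 of complex IV (14 passed). Ndufa4 and Ndufa4l2 are counted with complex IV.

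RNA was taken from mouse embryonic stem (ES) cells on 9 arrays. The undifferentiated cells (ES array) were kept with leukemia inhibitory factor (LIF) at 2000 units/ml and doxycycline (Dox) at 1 µg/ml. The other 8 arrays are of cells differentiating in serum medium for 0.5, 1.5, 2.5 or 3.5 days (D0.5 to D3.5), each day with 1 µg/ml Dox (Dox+) and without Dox (Dox-). In these cells Dox governs an always-active version of protein kinase A, and the question was what this kinase does to early differentiation. Whether the kinase is on with or without Dox is not stated, so groups are named by medium. Every array is 1 sample with no replicate, and the sources used here do not name the line, its clones or the promoter of the transgene.

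The respiratory chain passes electrons from NADH (complex I) and succinate (complex II) through ubiquinone, complex III and cytochrome c to oxygen at complex IV, and complexes I, III and IV pump protons as they do so. Complexes I, III and IV also hold subunits made from mitochondrial DNA; complex II does not. Pluripotent stem cells are known for high glycolysis, and the balance between glycolysis and respiration is known to shift as they differentiate. No mitochondrially encoded gene had a probe set here (0 genes), so every value below is of a nuclear gene's messenger RNA and none is of respiration.

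Signals are on a linear scale that the authors set to an average of 100 per array. Between 41.6% and 44.2% of genes reached 50 per array. As a measure of RNA integrity, the Actb probe sets had 3'/5' ratios of 1.60 to 1.98, lowest on the ES array. All 6 ES cell markers (Pou5f1, Sox2, Nanog, Zfp42, Esrrb and Dppa5a) were bright on the ES array, at 461.5 to 5115.5. Fibroblast markers reached at most 37.6 there, and Col1a1 reached 156.7 on the Dox- array of D3.5. These are bulk RNA measurements, so a lower share of cells expressing a gene and less RNA per cell cannot be told apart. The part that changing cell makeup has in the differences below was not tested.

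Most respiratory chain genes stayed close to their starting level, with a small common step down between D0.5 and D1.5. The median signal of the 71 genes was 1179 on the ES array, 1137 (Dox+) and 1085 (Dox-) at D0.5, and 1033 and 929 at D1.5. Later it was 992 and 933 (D2.5), then 1007 and 1021 (D3.5). Both D1.5 arrays lay below both D0.5 arrays for 46 of 71 genes, against 30.2% of all genes tested, and above both for 4, against 32.5%. By complex the lower count was 26 of 41 in complex I, 3 of 8 in complex II, 6 of 8 in complex III and 11 of 14 in complex IV. Complex II had the smallest share, on few genes and near that of all genes. Its 3 were the subunit Sdhc and the assembly factors Sdhaf1 and Sdhaf4. All 6 arrays from D1.5 on lay below both D0.5 arrays for 33 of 71 genes, against 20.0% of all genes, and above both for 3, against 21.3%. With quantile normalization the 33 became 21, beside 21.7% of all genes, while the 46 became 43, beside 31.8%.

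All differences are of log2(signal + 16), so that those of dim genes come out too small, and ± gives limma's standard error. From D0.5 to D1.5 the median difference was -0.19 over the respiratory chain genes and 0.01 over all genes, with 60 of 71 below 0 against 48.7% of all genes. Several neighbouring lists, described below, had a like step. Their medians were -0.20 (mitochondrial ribosome), -0.18 (citrate cycle and pyruvate dehydrogenase), -0.15 (ATP synthase) and -0.22 (electron carriers and ubiquinone synthesis). Those of import and mitochondrial DNA genes were 0.02 and -0.01. Few single genes of the chain passed the test at this step: 1 was called lower (1.32% of all genes were), which was Cox6b2, and 0 higher (1.73%). At an unadjusted p under 0.05 it was 22 lower, against 10.2% of all genes, and 3 higher, against 12.6%. The Actb 3'/5' ratio moved over the same step, from 1.70 (Dox+) and 1.74 (Dox-) at D0.5 to 1.90 and 1.98 at D1.5. At D3.5 it was 1.935 and 1.635. The Gapdh ratio was 1.01 (Dox+) and 1.02 (Dox-) at D0.5 and 1.06 and 0.98 at D1.5. The part of RNA integrity in the lower signals was not tested. The later steps were flat. The median difference was -0.01 from D1.5 to D2.5 and 0.02 from D2.5 to D3.5, and limma called 0 respiratory chain genes in both, as it did of all genes (0.00% in each direction). At an unadjusted p under 0.05 the step to D2.5 held 0 of the 71 genes (1.96% of all genes lower, 1.69% higher), and the step to D3.5 held 0 lower (1.62%) and 1 higher (2.16%).

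**Figure D1:**
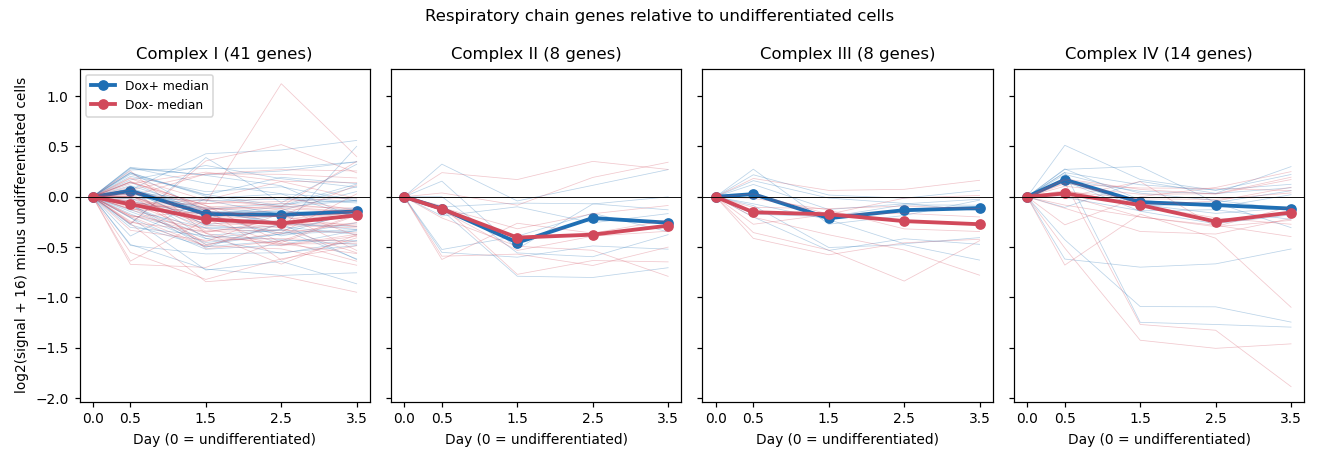
Each panel plots, for the tested genes of 1 complex, the log2(signal + 16) difference from the ES array (vertical axis) by day (horizontal axis); thin lines are genes, and thick lines are medians in Dox+ (blue) and Dox- (red). The medians of all 4 complexes lie lower on D1.5 than on D0.5, and the lowest lines of complex IV are Cox6b2 and Cox7a1.

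Over the whole interval from D0.5 to D3.5, 13 of the 71 genes fell and 1 rose (limma, adjusted p under 0.05 over 8716 genes). Of all genes 10.2% fell and 11.8% rose. The genes that fell were 7 of 41 in complex I, 1 of 8 in complex II, 1 of 8 in complex III and 4 of 14 in complex IV, and the gene that rose belongs with complex IV. Cox7a1, among those of complex IV that fell, passed the signal filter only through its ES and D0.5 arrays. The median difference was -0.15 over the 71 genes and 0.02 over all genes, with 56 of 71 below 0 against 48.4%. By complex it was -0.15 for complex I, -0.02 for complex II, -0.15 for complex III and -0.18 for complex IV. This contrast uses the same D0.5 arrays as the first step. The median of all tested genes was 0.13 higher on the Dox- array of D3.5 than on the Dox+ array of D0.5, and the count rests on the scaling. With the arrays quantile-normalized 7 genes were called lower, beside 10.6% of all genes, and 49 of 71 lay below 0 beside 52.9%. With the arrays centred on their medians 17 were called lower, beside 13.3%, and 64 of 71 lay below 0 beside 56.8%. It also rests on the earliest Dox- array, without which 0 respiratory chain genes and 66 of all genes were called, down from 1917.

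**Figure D2:**
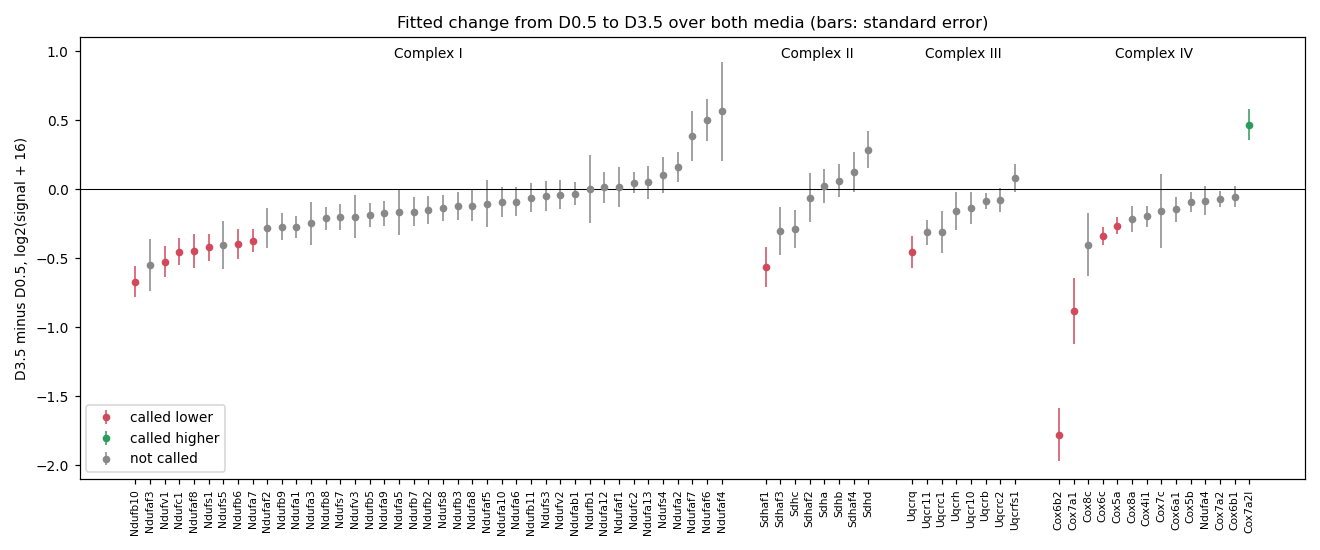
Points give the fitted log2(signal + 16) difference from D0.5 to D3.5 (vertical axis) for each of the 71 tested genes, ordered within each complex, with bars of 1 standard error; red marks the 13 genes called lower, green the 1 called higher and grey those not called. Cox6b2 lies lowest at -1.78, and the highest points are Ndufaf4 at 0.56, not called, and Cox7a2l at 0.47, called.

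Complex I takes electrons from NADH in its matrix arm and pumps protons in its membrane arm. In the matrix arm, Ndufv1, the subunit that binds NADH, read 1200.2 on the ES array, 1328, 1065, 913 and 1001 from D0.5 to D3.5 in Dox+ and 1438, 929, 852 and 911 in Dox-, in the same order of days. Both D0.5 arrays were the highest, and the 6 later arrays all lay below the ES array. Ndufv1 fell by 0.53 ± 0.11 from D0.5 to D3.5 (1.44-fold, limma adjusted p = 0.0252). Ndufs1, which carries iron-sulfur clusters of the same arm, read 1168 on the ES array, 1099.6, 886, 866 and 837 in Dox+ and 1085, 886, 841 and 785 in Dox-. Its 6 later arrays lay below both D0.5 arrays, with a fall of 0.42 ± 0.10 (limma adjusted p = 0.0311). Ndufa7, an accessory subunit of the matrix arm, fell by 0.38 ± 0.08 (limma adjusted p = 0.0271). The calls of Ndufs1 and Ndufa7 were lost when any 1 array was left out, and with quantile normalization.

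In the membrane arm the accessory subunit Ndufb10 read 755 on the ES array, 653, 449.7, 478 and 408 in Dox+ and 626, 414, 431 and 384 in Dox-. All 6 arrays from D1.5 on lay below both D0.5 arrays, and these below the ES array. The fall of Ndufb10 from D0.5 to D3.5 was 0.67 ± 0.11 (1.59-fold, limma adjusted p = 0.0132), the largest of complex I. Ndufc1, another accessory subunit, read 1929 on the ES array, 2285, 1743, 1614 and 1536 in Dox+ and 1969, 1522, 1583 and 1553 in Dox-, a fall of 0.45 ± 0.10 (limma adjusted p = 0.0248). Its D0.5 arrays and the ES array lay above all the later arrays. The call of Ndufc1 was lost with quantile normalization, with the mean of its probe sets and without the mean-variance trend. Ndufb6 fell by 0.40 ± 0.11 (limma adjusted p = 0.0470), a call also lost when any 1 array was left out and with quantile normalization.

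The 6 core subunits of complex I all lay below 0 from D0.5 to D3.5 (median -0.17), as did 22 of the 27 tested accessory subunits (median -0.16). Ndufab1, the mitochondrial acyl carrier protein, which also serves fatty acid synthesis, stayed between 1411 and 1552 over the 9 arrays, the narrowest range of complex I (0.14 on the log2 scale). A probe set shared by Ndufab1 and Ndufab1-ps ranged more widely, from 1312.5 (D3.5 Dox-) to 1862.3 (D2.5 Dox+). Ndufb4 was judged only by a dim probe set of its own, at 0.6 to 7.4, and did not pass the filter. A probe set shared by Ndufb4 and its copies Ndufb4b and Ndufb4c read 1236 on the ES array, 1187.8, 779.3, 667.5 and 758.9 in Dox+ and 1067.6, 574.2, 807.8 and 697.5 in Dox-. It was left out of the counts because its signal cannot be split among these genes. The shared probe set of Ndufa11 and Ndufa11b went from 1042.2 on the ES array, and 917.2 (Dox+) and 852.5 (Dox-) on D0.5, to 636.9 and 693.7 on D3.5.

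Complex III hands electrons from ubiquinol to cytochrome c. Uqcrq, a small subunit near the ubiquinone site, read 1189 on the ES array, 1132, 1014, 856 and 894 in Dox+ and 1031, 912, 819 and 686 in Dox-. It fell by 0.46 ± 0.12 from D0.5 to D3.5 (1.37-fold, limma adjusted p = 0.0399), and with the mean of all its probe sets in place of the brightest the difference was -0.08 (limma adjusted p = 0.656). The other probe sets of Uqcrq were near background, at mean signals of 7.3 to 11.0, so that mean says little about the fall. Uqcr11, another small subunit, read 1477 (Dox+) and 1306 (Dox-) on D0.5 and 1196 and 1036 on D3.5, a difference of -0.31 ± 0.09 that was not called (limma adjusted p = 0.0582). Uqcrc1, a large subunit on the matrix side, read 1403 and 1162 on D0.5 and 959 and 1099 on D3.5, with a difference of -0.31 ± 0.15 (limma adjusted p = 0.191). Of the remaining genes Uqcrb had the narrowest range, from 5133 to 6033, and Uqcrfs1, the Rieske iron-sulfur protein, differed by 0.08 ± 0.10 (limma adjusted p = 0.584).

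In complex II, succinate dehydrogenase, the subunits Sdhb and Sdhd differed at another time, between the ES array and D0.5. Sdhb, the iron-sulfur subunit, read 937 on the ES array, 634, 613, 664 and 649 in Dox+ and 617, 626, 578 and 658 in Dox-, so that all 8 differentiating arrays lay close together and below the ES array. Sdhd, a membrane anchor that helps bind ubiquinone, read 758 on the ES array, 522, 574, 675 and 592 in Dox+ and 487, 629, 587 and 643 in Dox-. On D0.5 the differences from the ES array were -0.55 (Dox+) and -0.59 (Dox-) for Sdhb and -0.52 and -0.62 for Sdhd. A dimmer second probe set of Sdhd read 184.1 on the ES array, and 81.9 (Dox+) and 158.5 (Dox-) on D0.5. Its D0.5 signal was thus lower in both media, but much less so in Dox-. These differences set 1 array against single arrays, so there is no test.

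Sdhc, the other membrane anchor, read 406 on the ES array, 406, 270.4, 263 and 309 in Dox+ and 368, 275, 305 and 317 in Dox-. It was lower on all arrays from D1.5 on, and its difference of -0.29 ± 0.14 from D0.5 to D3.5 was not called (limma adjusted p = 0.177). Sdha, the flavoprotein that oxidizes succinate, read 1010.1 on the ES array and 807 to 950.5 on the others, with a difference of 0.02 ± 0.12 from D0.5 to D3.5 (limma adjusted p = 0.911). All 4 subunits lay below their ES signal on every array from D1.5 to D3.5. From D0.5 to D3.5 their median difference was 0.04, with Sdhb at 0.06 ± 0.12 (limma adjusted p = 0.737) and Sdhd at 0.28 ± 0.13 (limma adjusted p = 0.177).

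Most of the chain did not have the lower D0.5 signal of Sdhb and Sdhd. By count, 6 of 71 genes were lower than the ES array by at least 0.32 on both D0.5 arrays, against 8.04% of all genes, and 1 was at least 1.5-fold lower on both, against 3.18%. The 6 are Sdhb, Sdhd, Cox7a1, Cox7c and the complex I assembly factors Ndufaf1 and Ndufaf5, named after their values were seen. Cox7c, a small complex IV subunit, read 211 on the ES array, 132 (Dox+) and 126 (Dox-) at D0.5, differences of -0.62 and -0.68. The median difference from the ES array at D0.5 was 0.06 in Dox+ and -0.08 in Dox-. Over the whole course 25 of 71 genes had all 8 differentiating arrays below the ES array, against 18.4% of all genes, and 5 had all above, against 22.9%.

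Complex IV, cytochrome c oxidase, has several nuclear subunits that exist in more than 1 form, each made in certain tissues, and the 2 largest falls of the chain were among these. Cox6b2, the testis form of subunit VIb, read 226 on the ES array and 269.9 (Dox+) and 250.3 (Dox-) on D0.5. From D1.5 on it read 85.8, 84.3 and 82.5 in Dox+ and 84.3, 80.4 and 49.4 in Dox-. The ES and D0.5 arrays formed a high group and the later 6 a low one, with no overlap, and most of the drop lay between D0.5 and D1.5. Cox6b2 fell by 1.45 ± 0.19 over this first step (limma adjusted p = 0.0272) and by 1.78 ± 0.19 from D0.5 to D3.5 (3.44-fold, limma adjusted p = 0.00479). Without the D0.5 Dox- array the adjusted p of the longer interval was 0.0673. Cox6b1, the form made in most tissues, read 3208 on the ES array and 3004 to 3581 on the others, and its difference from D0.5 to D3.5 was -0.06 ± 0.07 (limma adjusted p = 0.615).

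Cox7a1, the heart and skeletal muscle form of subunit VIIa, read 93.0 on the ES array, 65.1, 35.2, 35.1 and 30.0 in Dox+ and 60.6, 24.6, 22.4 and 23.6 in Dox-. It is dim, with 3 arrays at or above 50, all of them early. These are its ES and D0.5 arrays, so it passed the filter only where it was high. That choice favoured a fall before the test was made. Cox7a1 fell by 0.88 ± 0.24 from D0.5 to D3.5 (limma adjusted p = 0.0444). This call was lost when any 1 array was left out, and with no signal filter. Cox7a2, the form made in most tissues, stayed between 4055 and 4555, the narrowest range of complex IV, with a difference of -0.07 ± 0.06 (limma adjusted p = 0.413).

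Cox7a2l, a relative of the VIIa subunits that joins complexes III and IV in supercomplexes, went the other way. It read 896 on the ES array, 832, 999, 918 and 1107 in Dox+ and 736, 896, 956 and 1068 in Dox-. Its D0.5 arrays were the lowest and its D3.5 arrays the highest. Cox7a2l rose by 0.47 ± 0.11 (1.38-fold, limma adjusted p = 0.0313), and its other 2 probe sets differed by 0.32 and 0.38. The call was lost with the arrays centred on their medians, with the mean of its probe sets, without the mean-variance trend, and when any 1 array was left out.

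The other tissue forms were near background. Cox8c, a testis form, just passed the filter, at 50.9 (D0.5) and 52.3 (D1.5) in Dox+ medium and 28.8 to 45.5 elsewhere, with a difference of -0.41 ± 0.23 from D0.5 to D3.5 (limma adjusted p = 0.243). Cox4i2, Cox6a2, Cox7b2, Cox8b and the hypoxia-inducible Ndufa4l2 did not pass, at 0.5 to 17.4 over all 9 arrays. Among the common subunits Cox6c fell by 0.34 ± 0.06 (limma adjusted p = 0.0175) and Cox5a by 0.27 ± 0.06 (limma adjusted p = 0.0322). The call of Cox5a, like that of Uqcrq, was lost with quantile normalization and when any array but the D3.5 Dox+ array was left out. Cox8a, the common form of subunit VIII, read 1951 (Dox+) and 1619 (Dox-) on D0.5 and 1546 and 1507 on D3.5, a difference of -0.22 ± 0.10 (limma adjusted p = 0.157).

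**Figure D3:**
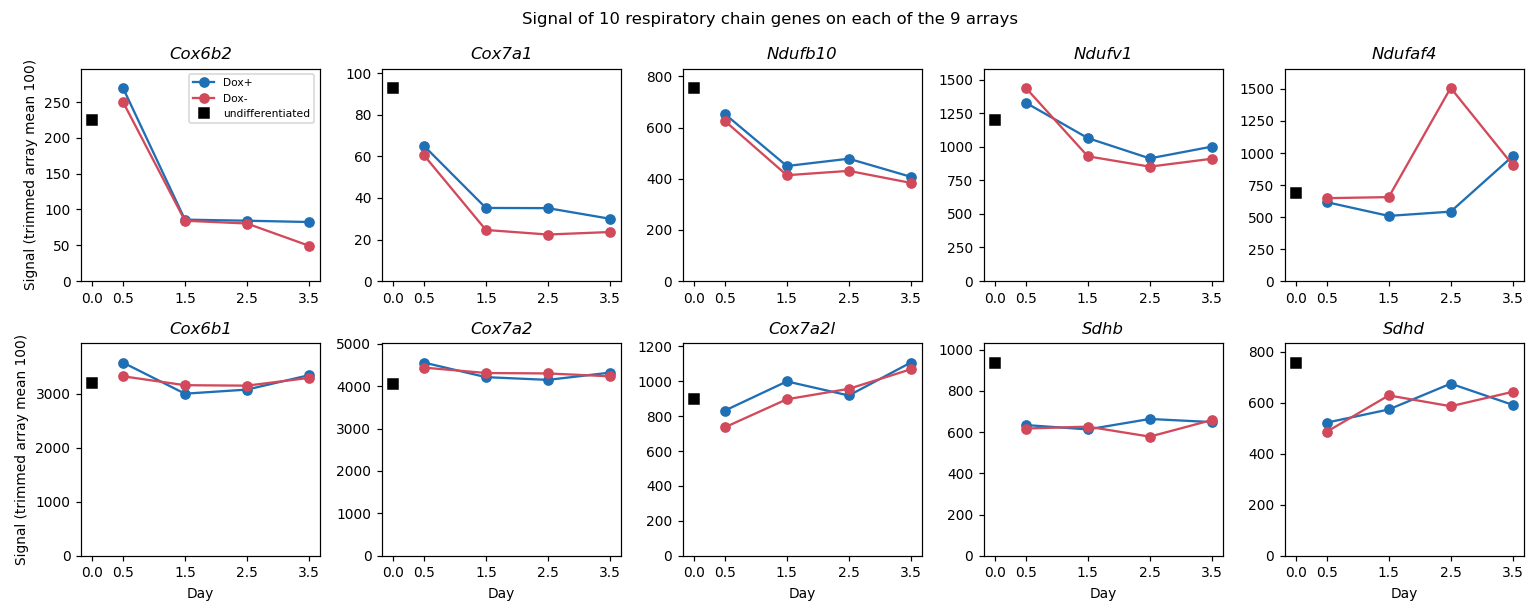
Each panel plots the signal of 1 gene (vertical axis, linear, from 0) by day (horizontal axis) in Dox+ (blue) and Dox- (red), with the ES array as a black square at day 0; each point is 1 array, with no error. Cox6b2 drops from 269.9 and 250.3 on D0.5 to 85.8 and 84.3 on D1.5 while Cox6b1 stays between 3004 and 3581, Sdhb is highest on the ES array at 937, and Ndufaf4 peaks at 1509 on the Dox- array of D2.5.

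The promoters of the paired forms differ in letters that can be read. Each window below is the 250 bases before the gene's start in RefSeq (build GRCm38.p6), printed 5' to 3' on the gene's strand. They are shown because Cox6b2 and Cox7a1 fell while their common forms did not pass the test, and because Ndufaf4 had the largest difference between media on any single day, on D2.5. Capitals mark a match to the motif of NRF1 (the 10 letters in capitals in the Ndufaf4 window, the same on both strands) or of ETS factors such as GABP (CCGGAAG, searched on both strands, so also as CTTCCGG), 2 families of factors known to drive respiratory chain genes.
Cox6b2: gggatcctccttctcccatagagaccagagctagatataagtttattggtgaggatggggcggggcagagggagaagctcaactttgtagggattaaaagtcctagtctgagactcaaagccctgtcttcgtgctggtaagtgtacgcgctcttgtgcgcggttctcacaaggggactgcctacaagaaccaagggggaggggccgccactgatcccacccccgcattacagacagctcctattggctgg
Cox6b1: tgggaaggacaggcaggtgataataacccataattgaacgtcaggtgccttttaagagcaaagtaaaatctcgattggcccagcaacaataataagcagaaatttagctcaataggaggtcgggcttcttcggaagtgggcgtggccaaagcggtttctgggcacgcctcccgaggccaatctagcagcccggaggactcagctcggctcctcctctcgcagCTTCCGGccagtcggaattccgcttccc
Cox7a1: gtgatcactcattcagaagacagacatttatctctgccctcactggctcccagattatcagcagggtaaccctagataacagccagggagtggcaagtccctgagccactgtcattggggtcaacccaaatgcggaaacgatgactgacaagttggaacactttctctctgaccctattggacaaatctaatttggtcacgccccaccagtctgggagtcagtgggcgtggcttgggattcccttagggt
Cox7a2: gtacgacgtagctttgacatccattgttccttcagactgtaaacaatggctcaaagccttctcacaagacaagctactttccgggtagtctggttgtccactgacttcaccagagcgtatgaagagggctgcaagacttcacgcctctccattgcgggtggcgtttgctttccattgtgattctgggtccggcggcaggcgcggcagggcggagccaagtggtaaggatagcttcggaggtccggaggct
Ndufaf4: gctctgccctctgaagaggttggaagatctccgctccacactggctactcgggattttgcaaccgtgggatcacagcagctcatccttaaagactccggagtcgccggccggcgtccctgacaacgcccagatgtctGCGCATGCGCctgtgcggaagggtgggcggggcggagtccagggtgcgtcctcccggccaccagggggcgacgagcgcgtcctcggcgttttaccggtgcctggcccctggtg
Cox6b2 lies at chr7:4753095-4753344 on the minus strand with 8 CpG pairs, and Cox6b1 at chr7:30626115-30626364 on the minus strand with 14. The observed over expected CpG ratio was 0.430 for Cox6b2 and 0.768 for Cox6b1. Cox7a1 lies at chr7:30183921-30184170 on the plus strand with 4 CpG pairs and a ratio of 0.244, and Cox7a2 at chr9:79759854-79760103 on the minus strand with 14 and 0.751. Ndufaf4, at chr4:24897833-24898082 on the plus strand, holds 23 CpG pairs, with a ratio of 0.835. Both tissue forms had fewer CpG pairs than their common forms, and the median ratio was 0.768 over the chain's windows, 0.755 over those of tested genes and 0.374 over all windows of the table.

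Of the 77 genes, 63 had a promoter in the table. The NRF1 motif was in 2 of them (3.17%), Ndufaf4 and Cox6a1, 113 and 162 bases before the start, against 0.877% of the 27025 genes of the table and 2.08% of the tested genes. The ETS motif was in 12 (19.0%), among them Cox6b1 at 28 bases before the start, against 7.83% of all genes of the table and 17.7% of tested genes. Of the genes that fell from D0.5 to D3.5, 10 had a promoter, with the NRF1 motif in 0 and the ETS motif in 2, Ndufb6 and Ndufaf8. A match is a run of letters, not a measured binding site.

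The assembly factors build the complexes but are not part of them. The 12 factors had a median difference of -0.08 from D0.5 to D3.5, with 7 below 0, and the 55 subunits other than tissue forms had -0.15, with 46 below 0. Of the 8 factors for complex I, Ndufaf8 alone was called: it read 594 (Dox+) and 544 (Dox-) on D0.5 and 452 and 375 on D3.5, a fall of 0.45 ± 0.12 (limma adjusted p = 0.0462). Ndufaf6 read 224 on the ES array, 235, 307, 315 and 338 in Dox+ and 184, 291, 328 and 267 in Dox-, with a difference of 0.50 ± 0.15 that was not called (limma adjusted p = 0.0641). Both D0.5 arrays of Ndufaf6 were below the 6 later ones. Ndufaf1 read 293 on the ES array and 174 to 213 afterwards, and Ndufaf5, which modifies the core subunit Ndufs7, read 162 and then 84.5 to 112. In both, all 8 differentiating arrays lay below the ES array, and from D0.5 to D3.5 the differences were 0.02 ± 0.14 (limma adjusted p = 0.950) and -0.11 ± 0.17 (limma adjusted p = 0.676). Ndufaf2 ranged from 206 to 306, highest on the ES array, with a difference of -0.28 ± 0.15 (limma adjusted p = 0.207).

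Of the 4 complex II assembly factors, Sdhaf1, which helps insert the iron-sulfur clusters of Sdhb, read 167 on the ES array, 151, 89.9, 89.0 and 96.3 in Dox+ and 156, 91.3, 102 and 101 in Dox-. Its ES and D0.5 arrays lay above all 6 later arrays. Sdhaf1 fell by 0.56 ± 0.14 from D0.5 to D3.5 (1.48-fold, limma adjusted p = 0.0388). Sdhaf4, which binds Sdha before assembly, read 274 on the ES array, 347, 266, 298 and 333 in Dox+ and 282, 257, 315 and 352 in Dox-. It was lowest at D1.5 and higher again at D3.5 in both media, with a D0.5 to D3.5 difference of 0.13 ± 0.15 (limma adjusted p = 0.563). The calls of Sdhaf1 and Ndufaf8 were lost when any 1 array was left out.

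The comparison of media asks whether the chain differs with and without Dox over the 4 days. No respiratory chain gene passed the test: limma called 0 of 71, as it called 0.00% of all genes lower or higher, and at an unadjusted p under 0.05 it was 9 lower (7.47% of all genes) and 1 higher (4.30%). The differences were small and mostly of 1 sign. The median, Dox- minus Dox+, was -0.06 over the 71 genes and -0.01 over all genes, with 53 of 71 below 0 against 51.7%. Dox- lay below Dox+ on all 4 days for 24 of 71 genes, against 12.1% of all genes, and above it for 2, against 8.67%. The 24 were 14 of 41 in complex I, 1 of 8 in complex II, 2 of 8 in complex III and 7 of 14 in complex IV. With quantile normalization the 24 became 16, beside 11.0% of all genes.

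Taken by day from D0.5 to D3.5, the median was -0.10, -0.06, -0.04 and -0.06, and that of all genes -0.04, 0.01, 0.01 and 0.00. On D0.5, 62 of 71 genes were lower in Dox-, against 58.9% of all genes. A steady change of the medium's difference with day was not found either: limma called 0 of the 71 genes and of all genes 0.00%, and 0 had an unadjusted p under 0.05, against 4.16% of all genes lower and 4.28% higher.

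The 2 genes that were higher in Dox- on all 4 days both assemble complex II (3 genes were with quantile normalization and 1 with median centring). Sdhaf2, which attaches the flavin to Sdha, read 159 on the ES array, 179, 106, 151 and 159 in Dox+ and 191, 181, 208 and 196 in Dox-. The media narrowly did not overlap, at 179.2 for the highest Dox+ and 181.4 for the lowest Dox- array. The difference was 0.37 ± 0.13 (limma adjusted p = 0.416). In a second, dimmer probe set of Sdhaf2 the media overlapped. It read 101.7 (Dox+) and 95.3 (Dox-) on D0.5, so Dox- was not higher on every day there. Sdhaf1 was the other of these genes, with a difference of 0.07 ± 0.10 (limma adjusted p = 0.761). Sdhaf3, which works with Sdhaf1 on the iron-sulfur clusters of Sdhb, had the opposite sign: it read 189 on the ES array, 175, 180.2, 179 and 171 in Dox+ and 161, 129.7, 126 and 102 in Dox-. The media of Sdhaf3 did not overlap, and the difference was -0.42 ± 0.12 (limma adjusted p = 0.416). The share of all genes whose media did not overlap was not counted.

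Among the complex I assembly factors Ndufaf7 read 91.3 on the ES array, 72.8, 125, 87.0 and 118 in Dox+ and 52.9, 75.7, 61.6 and 61.7 in Dox-. Dox- was lower on each day, by -0.54 ± 0.13 in the fit (limma adjusted p = 0.416), though the Dox- array of D1.5 exceeded the Dox+ array of D0.5. Its difference from D0.5 to D3.5 was 0.38 ± 0.18 (limma adjusted p = 0.178). Ndufaf3 read 160.3 on the ES array, 200.0, 188, 174 and 136 in Dox+ and 184, 147, 98.0 and 117 in Dox-, lower in Dox- on each day, by -0.34 ± 0.13 (limma adjusted p = 0.420). Ndufaf3 also differed by -0.55 ± 0.19 from D0.5 to D3.5 (limma adjusted p = 0.0850).

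Ndufaf4 stood apart on a single day. It read 684 on the ES array, 616, 509, 542 and 975 in Dox+ and 647, 656, 1509 and 907 in Dox-. The Dox- array of D2.5 was the highest of the 9, 2.73-fold above its Dox+ partner (1.45 on the log2 scale), and by D3.5 both media were near each other. The second probe set of Ndufaf4 went from 254.1 in Dox+ to 664.8 in Dox- at D2.5 and from 416.9 to 300.5 at D3.5. Over all 4 days the difference of Ndufaf4 was 0.44 ± 0.25 (limma adjusted p = 0.479), and from D0.5 to D3.5 it was 0.56 ± 0.36 (limma adjusted p = 0.289).

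Subunits showed smaller differences between media. In complex IV, Cox7a1 differed by -0.26 ± 0.17 (limma adjusted p = 0.520), Cox6b2 by -0.19 ± 0.14 (limma adjusted p = 0.554) and Cox8a by -0.15 ± 0.07 (limma adjusted p = 0.423), and these were the largest there. In complex III the largest were Uqcr11 at -0.19 ± 0.07 (limma adjusted p = 0.416), Uqcrq at -0.18 ± 0.08 (limma adjusted p = 0.431) and Uqcrc1 at -0.12 ± 0.11 (limma adjusted p = 0.648). By their brightest probe sets, the 4 subunits of complex II lay between -0.05 (Sdhb) and 0.03 (Sdhc). Dimmer second probe sets of Sdha, Sdhd and Sdhc differed by 0.28, 0.12 and -0.10. In complex I, Ndufv3, a small subunit near the NADH site, differed by -0.33 ± 0.11 (limma adjusted p = 0.416), with a D2.5 signal of 1318 in Dox+ and 843 in Dox-.

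Day by day, D0.5 had 0 of 71 genes with a difference of 1.5-fold or more, while 0.470% of all genes were lower and 0.654% higher. On D1.5 Ndufaf7 was lower and Sdhaf2 higher, against 5.17% and 4.72% of all genes. On D2.5, 3 genes were lower (Ndufaf3, Ndufb1 and Ndufv3, at -0.74, -0.70 and -0.64) and 1 higher (Ndufaf4), against 10.4% and 7.53%. Ndufb1 was dim that day, at 88.7 in Dox+ and 48.6 in Dox-, the latter below the filter of 50. On D3.5, 3 were lower (Ndufaf7, Sdhaf3 and Cox6b2, at -0.79, -0.66 and -0.59) and 0 higher, against 10.6% and 9.61%. Of these genes Ndufaf3, Ndufaf4, Ndufaf7, Sdhaf2 and Sdhaf3 are assembly factors. The counts come from single arrays, with no test. On D2.5, when Ndufaf4 differed most, the mesoderm marker Mesp1 had a signal of 14.6 in Dox+ and 1432.4 in Dox-, and its part in that difference was not tested.

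In a fit with a single medium difference for D2.5 together with D3.5, limma called 0 of the 71 genes, while 4.35% of all genes were called lower and 2.83% higher. At an unadjusted p under 0.05 it was 6 lower and 2 higher, against 13.4% and 11.1%. These days were picked with the data known, so p-values of this fit are a description. The smallest were those of Sdhaf3 at -0.56 ± 0.18 (limma adjusted p = 0.109), Ndufa3 at 0.34 ± 0.11 (limma adjusted p = 0.117) and Ndufv3 at -0.46 ± 0.15 (limma adjusted p = 0.128). Ndufaf4 had 0.67 ± 0.32 (limma adjusted p = 0.250) and was called only where an array of D3.5, or both, was left out, at 1.45 with adjusted p of 0.0163 to 0.0173. That value is the same single pair of D2.5 arrays, with the spread taken from the other days, so it adds no replicate.

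**Figure D4:**
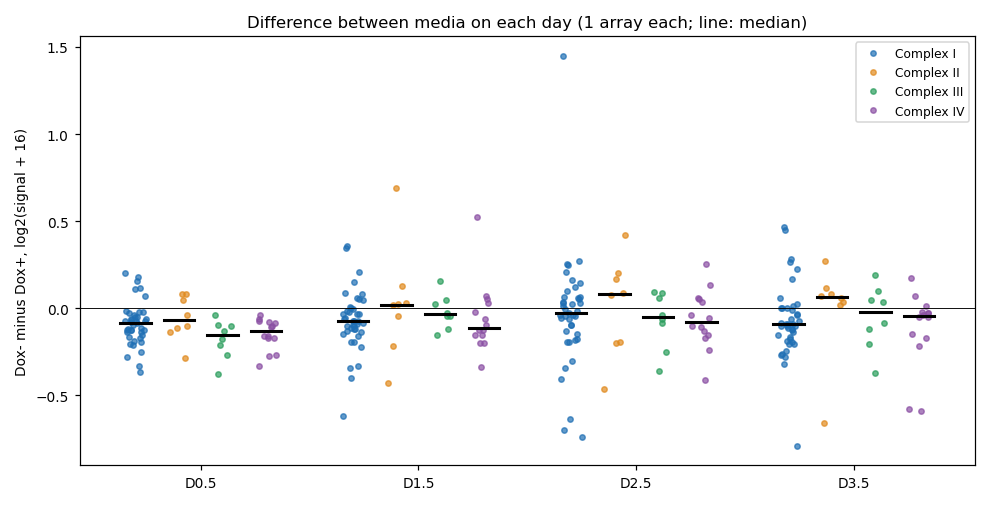
Each point is 1 of the 71 tested genes, with the log2(signal + 16) difference Dox- minus Dox+ (vertical axis) on each day (horizontal axis), coloured by complex; black lines are the medians of each complex, and each difference sets 1 array against 1 array. Most points lie a little below 0 on D0.5 (62 of 71, against 58.9% of all genes), and the point highest on D2.5 is Ndufaf4 at 1.45.

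Genes that work beside the chain were set next to it by the same counts. Of all genes 10.2% fell and 11.8% rose from D0.5 to D3.5, and several lists below lie near these shares. Of 18 ATP synthase genes, which use the proton gradient the chain builds, 4 fell from D0.5 to D3.5 and 0 rose, with a median of -0.21. Atp5g1, a source of the ring that turns in the membrane, fell by 0.88 ± 0.10 (limma adjusted p = 0.00574). Of 16 tested genes of electron carriers and ubiquinone synthesis, 3 fell and 1 rose, with a median of -0.27. Cyct, the testis form of cytochrome c, read 100.1 on the ES array, 137.8, 92.6, 37.2 and 9.3 in Dox+ and 126.5, 32.6, 5.9 and 0.7 in Dox-, and fell by 2.85 ± 0.35 (limma adjusted p = 0.00612). Cyct passed the signal filter only through its ES and D0.5 arrays and the Dox+ array of D1.5. As for Cox7a1, that choice favoured a fall before the test was made.

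Of 76 mitochondrial ribosome genes, 11 fell and 1 rose, beside 10.2% and 11.8% of all genes. Their median was -0.16, close to that of the chain. Of 22 tested genes of the citrate cycle and pyruvate dehydrogenase, 4 fell and 0 rose, with a median of -0.16. Pdk1, a kinase that shuts pyruvate dehydrogenase off, fell by 1.70 ± 0.42, and Mpc1, part of the pyruvate carrier, by 1.45 ± 0.35 (limma adjusted p = 0.0364 and 0.0335). Pdk1 was also called in the joint fit of both last days, at -1.47 (Dox- minus Dox+), where 4.35% of all genes were called lower. That fit also called 1 gene lower in each of the lists of electron carriers, nuclear regulators and import. Of 24 tested assembly factors outside the symbol rule, 2 fell (Ecsit and Cox17) and 0 rose, with a median of -0.18.

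Of 11 genes for copying and transcribing mitochondrial DNA, 1 rose and 0 fell, beside 11.8% and 10.2% of all genes. This was Polg, the DNA polymerase, whose Dox- array of D3.5 read 897.5 and whose other arrays read 146.6 to 291.2. Of 11 tested nuclear regulators, 1 fell and 2 rose: Esrrb, also an ES cell marker, fell by 3.40, and Ppargc1b, a coactivator of respiratory genes, rose by 0.97. Esrrb, like Cyct, passed the signal filter only through its ES and D0.5 arrays and the Dox+ array of D1.5, which favoured a fall. Ppargc1b read 119.5 on the ES array, 43.2 (Dox+) and 53.9 (Dox-) at D0.5 and 122.3 and 99.0 at D3.5, so its D3.5 signal was near that of the ES array. Of 22 tested import genes 1 fell and 0 rose, and of 7 tested uncoupling and antioxidant genes 3 fell (Sod2, Gpx1 and Sod1) and 0 rose. In the comparison of media over 4 days limma called 0 genes of these lists, as of all genes. These lists were described by counts alone, and no difference between a list and the chain, or between a list and all genes, was tested.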

How the data were processed

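Per the labels, total RNA of 9 samples was biotin-labelled and hybridised to 1 array each. The deposited table holds linear intensity values for each probe set. They were made with GCOS, per the submitters' processing notes; the sources used here do not give its version, background correction or filters. The labels name an average of 100, and the mean of the deposited values after trimming 2% at each end was 100.0 for each array.

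Of 45101 probe sets, 34945 have 1 gene symbol in the platform annotation; 932 with several were not used for counts. Symbols were updated by gene ID with RefSeq (GRCm38.p6), and platform and updated symbols gave the same 77 genes. The intensity values deposited by the authors were turned into log2(signal + 16), and limma (3.58.1, in R 4.3.3; lmFit, eBayes with a trend) was fitted to the 8 differentiating arrays for 8716 genes, with the day and the medium as blocks (3 residual degrees of freedom; 4 for the product of medium and day). A call is a Benjamini-Hochberg adjusted p below 0.05 over all genes. With no replicates, days stand in for repeats of media and media for repeats of days, so p-values measure the spread between these arrays, and their number limits the precision. The fits were tested on simulated data.

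Genes are given by name where they were called (the 8 largest per fit), had 1 of the 3 largest differences of a complex by day or medium, are subunits of complex II, assembly factors or tissue forms, or had the smallest range of a complex; other genes named were chosen after their values were seen. The genes, lists and tests were chosen with earlier results of these data known. Alternatives were the pseudocount, the filter, the scaling, the probe set rule, the trend, the block and leaving out days or arrays.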

Additional observations from a re-analysis of the deposited data

How the results depend on the processing

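The medium difference and its change with day gave 0 calls under every alternative run. The count of genes called from D0.5 to D3.5, 14, was 13 and 14 with pseudocounts of 1 and 64, 12 with a filter at 100, 7 with no filter, 8 with quantile normalization, 17 with median centring (13 of them shared), 10 with the mean of all probe sets (8 shared), 5 without the trend and 7 without the medium block. Leaving out a day or an array gave 0 to 5, with the lowest without the D0.5 Dox- array. Cox6b2, Ndufb10 and Ndufv1 were called under all 9 alternatives that kept every array, and in 9, 7 and 4 of the 10 that left some out; Cox6c was called in 7 of these 10, Ndufc1 in 5, Cox5a and Uqcrq in 1 each, and Cox7a1, Cox7a2l, Ndufa7, Ndufaf8, Ndufb6, Ndufs1 and Sdhaf1 in 0. The joint fit over D2.5 and D3.5 gave 0 to 1. The 33 genes with 6 later arrays below both D0.5 arrays became 44 with median centring. The 9 single-day differences of at least 1.5-fold became 31 at a lower limit (0.32 on the log2 scale), 1 at 2-fold and 2 with a pseudocount of 64. The cause of these changes was not tested. The comparison of media already pairs the arrays of each day through the day block. The labels give no replicate numbers, and no pairing by replicate was made. Signals near the filter, as of Cox7a1, Cox8c and Ndufb1, limit what can be read.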
